A study of Rattus norvegicus with 6 samples.

Results

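The genes described here belong to 3 families of axon guidance cues and their receptors: the semaphorins with plexins and neuropilins, the ephrins with Eph receptors, and the Slits with Robo receptors. They were taken as the probe sets of the array annotated to a single symbol with the name stem of a member (Sema1 to Sema7, Plxna to Plxnd, Nrp1, Nrp2, Epha, Ephb, Efna, Efnb, Slit1 to Slit3, Robo1 to Robo4), keeping for each gene the probe set of highest mean signal. This gave 50 genes, from 85 probe sets, out of 14217 named genes on the array.

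RK3E, the cell line used, comes from rat kidney epithelium and was immortalised by an adenovirus oncogene. The GLI1-transformed cells (4 arrays) came from RK3E cells transfected by lipofection with an expression construct for GLI1, which encodes a DNA-binding activator of Hedgehog target genes. Foci were then isolated and kept as lines. Of these arrays, 2 belong to clone II, 1 belongs to clone I and 1, called the unnamed array below, has no clone in its label. Parental RK3E cells (2 arrays) were grown in the same medium with foetal bovine serum. The labels do not say that the parental cells received an empty construct or were grown from single foci. No source used here gives the promoter of the construct. Gene values below are log2 of the MAS5 signal unless called signals, and differences are GLI1-transformed minus parental.

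Class 3 semaphorins are secreted and mostly act through a neuropilin that binds them and a plexin that signals, while membrane semaphorins bind plexins directly. Ephrins are membrane ligands, held by a lipid anchor in the A group and by a transmembrane segment in the B group, and they signal by cell contact through Eph receptor tyrosine kinases. Slits are secreted ligands of Robo receptors. All of these proteins steer growing axons, and they also act on cell adhesion and migration in epithelia, vessels and kidney. In the developing mouse kidney Slit2 and Robo2 limit where the ureteric bud grows out.

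The rat probe set for Gli1 was high on the GLI1-transformed arrays, at 13.15 on the unnamed array, 11.71 on clone I and 11.77 and 12.17 on clone II, against 5.17 and 6.50 on the parental arrays. Median linear signals ran from 568 to 691 on GLI1-transformed arrays and were 647 and 696 on parental arrays. The ratio of 3' to 5' GAPDH probe signals, which is higher in degraded RNA, was highest on clone II replicate 1 (7.52) and parental replicate 1 (3.66), and lay between 1.39 and 2.09 on the other arrays. The same ratio for beta-actin was 22.1 on clone II replicate 1, 10.8 on parental replicate 1 and between 6.21 and 7.58 on the other arrays. Fibroblast and mesenchyme markers moved with the groups: of 6 tested, 0 rose and 4 fell (Col1a1, Col1a2, Col3a1 and Vim), Pdgfra and Fbln1 did not pass, and the other 4 (Dcn, Lum, Pdgfrb and Thy1) were too dim to test. The summed linear signal of those 10 markers was 20691 to 39634 on GLI1-transformed arrays and 239513 to 242913 on parental arrays. Its part in the guidance gene results was not tested. In these bulk samples fewer cells of a type and less RNA per cell cannot be told apart. Endothelial markers summed to 1554 to 2674 on GLI1-transformed arrays and 1856 to 2622 on parental arrays, and Pecam1, Kdr, Tek, Tie1, Vwf and Emcn were all too dim to test. Neural and glial markers summed to 3414 to 6580 on GLI1-transformed arrays against 5242 to 6062 on parental arrays, and 1 of 5 tested fell (Map2). Immune markers summed to 1252 to 4379 on GLI1-transformed arrays against 1353 to 1883 on parental arrays, and 0 of 2 tested passed. Of 10 markers of kidney and simple epithelium, Krt8, Epcam, Cldn1 and Ocln were bright enough to test and Cldn1 rose. The summed signal was 3321 to 13021 on GLI1-transformed arrays and 5616 to 6118 on parental arrays, and Krt18, Krt19, Cdh1, Cdh16, Pax8 and Pax2 had a mean signal too low to test. Precision is set throughout by the small number of arrays.

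In GLI1-transformed cells several ligands and receptors of all 3 guidance families were lower than in parental cells, and a smaller set of semaphorin genes was higher. Both neuropilins fell, Nrp2 9.84-fold and Nrp1 2.66-fold, and so did the Slit2 ligand with its receptor Robo2 and the ephrin ligand Efna5 with the receptor Epha4. The semaphorin genes went apart: Sema3b, Sema3e and Sema6d rose and Sema3c fell. Of the 50 genes, 36 had a mean log2 signal above 8.33, the 40th percentile of the array, and were tested with limma. At a Benjamini-Hochberg adjusted p under 0.05, 4 rose, 8 fell and 24 did not pass, which is 33.3% called. Among those that rose, Sema6d passed the signal filter through its GLI1-transformed arrays alone, with both parental values (7.32 and 7.19) under the cutoff. Over all 18625 probe sets tested 13.1% were called, 5.84% risen and 7.25% fallen. With 1 probe set per gene, as for the guidance genes, 15.6% of 10240 genes were called. The guidance genes had a median log2 difference of -0.33, against 0.005 over all probe sets and 0.07 over all genes. The groups did not overlap for 20 of the 36 genes, 6 with every GLI1-transformed array above both parental arrays and 14 below. This held for 39.2% of all probe sets tested, 19.0% above and 20.2% below.

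**Figure D1:**
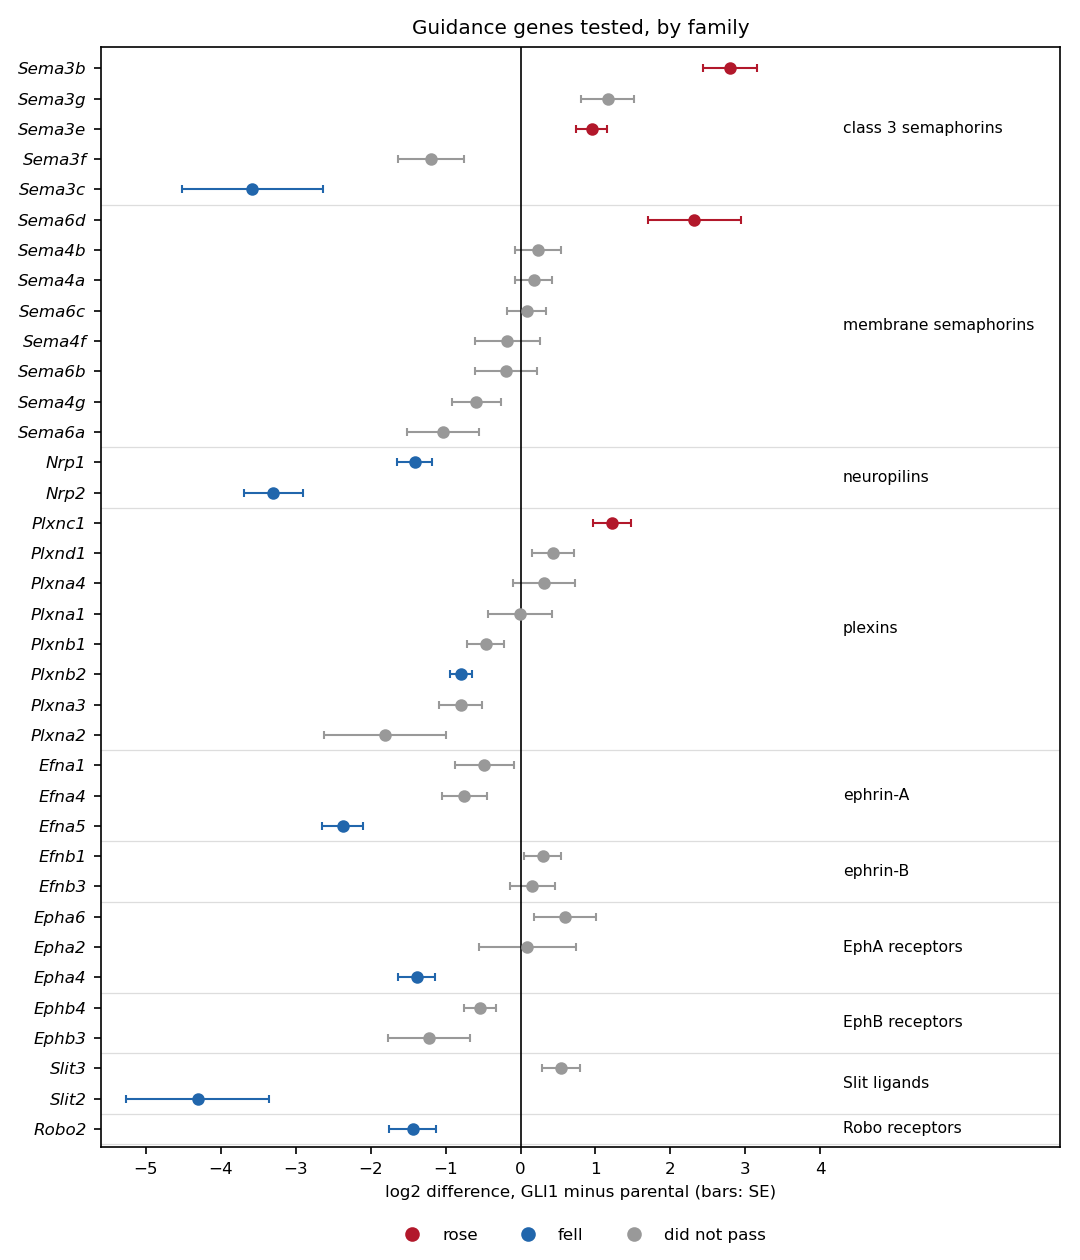
Log2 difference, GLI1-transformed minus parental, for the 36 guidance genes tested, grouped by family; points are limma estimates from 4 GLI1-transformed and 2 parental arrays, bars are SE, and colour shows genes that rose, fell or did not pass. The 2 neuropilins, Slit2 and Robo2 lie left of 0, and Sema3b, Sema3e, Sema6d and Plxnc1 lie right of it.

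The number called rests on the parental arrays, for the guidance genes as for all probe sets tested. Without parental replicate 1, 1 gene rose and 2 fell, and without parental replicate 2, 1 rose and 5 fell. With the pair of arrays of highest GAPDH ratio left out (replicate 1 of clone II and of the parental cells), 1 rose and 2 fell: Sema3b, Efna5 and Nrp2. These 3 genes passed under every alternative in which they were measured, and all 12 called genes kept their direction in each alternative run. Centring every array on its median moved the median of all probe sets to 0.165, with 60.6% of all calls rises against 44.6% here, and 5 guidance genes then rose and 7 fell.

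Neuropilins are the ligand-binding co-receptors of class 3 semaphorins, and they also bind vascular endothelial growth factors. Nrp2 stood at 8.95 on the unnamed array, 8.86 on clone I and 10.18 and 9.52 on clone II, against 12.97 and 12.38 on the parental arrays. Every GLI1-transformed array was more than 2 log2 units below the lower parental array. The group means were 9.38 ± 0.61 (SD, n = 4) in GLI1-transformed cells and 12.67 ± 0.42 (SD, n = 2) in parental cells, a 9.84-fold fall (SE 0.39 on the log2 scale, adjusted p = 0.0012, limma). A further Nrp2 probe set was too dim to test and averaged 5.55 in GLI1-transformed and 7.51 in parental cells. Its groups overlapped, with clone II replicate 1 and parental replicate 2 both at 7.22. Nrp1 was at 11.62 on the unnamed array, 11.28 on clone I and 11.82 and 11.65 on clone II, against 13.27 and 12.74 on the parental arrays. The fall was smaller than that of Nrp2, and the groups again did not overlap. Nrp1 averaged 11.59 ± 0.23 (SD, n = 4) in GLI1-transformed cells and 13.00 ± 0.38 (SD, n = 2) in parental cells, 2.66-fold lower (SE 0.23, adjusted p = 0.00555, limma). A further probe set of Nrp1 fell by 1.61 (adjusted p = 0.00225). The call of the first was lost without parental replicate 1 (adjusted p = 0.0921) and without both arrays of highest GAPDH ratio (0.116).

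The neuropilin genes are the only receptor family here in which every gene measured was called, and their start regions are shown for that reason. The RefSeq promoter table (build GRCr8) gives 250 bases before and 50 bases after a transcript start, and capitals mark the 50 bases from that start on. The Nrp1 window is chr19:73256307-73256606 on the plus strand, with 66.3% G and C. The Nrp2 window is chr9:71617004-71617303 on the plus strand, with 53.0% G and C, and its start differs from the first base of the annotated gene.
Nrp1: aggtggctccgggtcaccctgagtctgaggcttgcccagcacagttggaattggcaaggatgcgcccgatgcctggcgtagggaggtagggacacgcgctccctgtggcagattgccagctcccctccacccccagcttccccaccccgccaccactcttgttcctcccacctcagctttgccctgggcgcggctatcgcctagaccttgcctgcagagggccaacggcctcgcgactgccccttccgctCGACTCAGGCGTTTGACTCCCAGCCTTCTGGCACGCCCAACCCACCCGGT
Nrp2: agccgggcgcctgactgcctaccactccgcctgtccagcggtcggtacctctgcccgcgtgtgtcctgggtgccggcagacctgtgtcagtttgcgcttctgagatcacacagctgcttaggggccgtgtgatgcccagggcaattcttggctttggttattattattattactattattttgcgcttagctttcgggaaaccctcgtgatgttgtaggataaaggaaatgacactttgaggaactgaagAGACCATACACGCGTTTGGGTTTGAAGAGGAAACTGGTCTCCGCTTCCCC
The GLI binding consensus holds the 7-letter core ACCACCC. Neither window contains it on either strand. Promoters of 38 of the 50 guidance genes were in the table, 3 of those that rose and 6 of those that fell among them, and 0 of the 38 held the core. Over all 27457 promoters of the same length 4.47% did. The absence says only that these letters are not in these windows.

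Among the secreted class 3 semaphorins, 2 of 5 tested genes rose and 1 fell, 60% called against 15.6% over all genes. Sema3b, a ligand of neuropilins studied as a tumour suppressor in human lung cancer, was at 11.77 on the unnamed array, 11.39 on clone I and 12.62 and 12.50 on clone II, against 9.46 and 9.08 on the parental arrays. The lowest GLI1-transformed array was nearly 2 log2 units above the higher parental array. Means of 12.07 ± 0.59 (SD, n = 4) in GLI1-transformed and 9.27 ± 0.27 (SD, n = 2) in parental cells gave a 6.96-fold rise (SE 0.36, adjusted p = 0.00179, limma). Sema3e, which binds the plexin Plxnd1 without a neuropilin, was at 11.83 on the unnamed array, 12.09 on clone I and 12.02 and 11.67 on clone II, against 11.02 and 10.89 on the parental arrays. The groups were separate, with a difference of 0.95 (SE 0.21, adjusted p = 0.0184). Sema3e lost its call without clone I (adjusted p = 0.0524), without either parental array (0.118 and 0.132 for replicates 1 and 2) and without the arrays of highest GAPDH ratio (0.197).

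Sema3c, a secreted semaphorin needed for the cardiac outflow tract in mice, was at 5.88 on the unnamed array, 9.0 on clone I and 9.67 and 9.65 on clone II, against 12.24 and 12.02 on the parental arrays. The unnamed array lay far below the other GLI1-transformed arrays and under the 8.33 cutoff. Means were 8.55 ± 1.81 (SD, n = 4) in GLI1-transformed and 12.13 ± 0.15 (SD, n = 2) in parental cells, a 12.0-fold fall (SE 0.94 on the log2 scale, adjusted p = 0.0377). Without the unnamed array the fall was 6.46-fold (adjusted p = 0.000965). The call was lost without clone I (adjusted p = 0.0707), without parental replicate 1 (0.224) or 2 (0.163), without the arrays of highest GAPDH ratio (0.223), with quantile normalization (0.0501) and without the intensity trend (0.069).

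Sema3g, like Sema3f a ligand that prefers Nrp2, gave a difference of 1.16 (adjusted p = 0.0613). It passed with median centring (adjusted p = 0.0297), with quantile normalization (0.0352), with clone II averaged (0.0272) and without clone II replicate 2 (0.0181). On a further Sema3g probe set, too dim to test, the groups overlapped. Its means were 7.87 in GLI1-transformed and 8.20 in parental cells, the other direction. Sema3f gave -1.20 (adjusted p = 0.11), and passed without the unnamed array (log2 difference -1.52, adjusted p = 0.0181). In that fit 1377 of all probe sets rose and 1653 fell, against 1087 and 1351 with all arrays. Sema3a and Sema3d were too dim to test. Sema3d was at 7.48 on the unnamed array, 6.58 on clone I and 2.77 and 6.29 on clone II, against 10.65 and 9.91 on the parental arrays. With no filter it gave a difference of -4.50 (SE 1.17, adjusted p = 0.0498). Its GLI1-transformed signals were all below the cutoff and its parental signals above it.

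Of 8 tested membrane semaphorins 1 rose and 0 fell, 12.5% called against 15.6% over all genes. At an unadjusted p under 0.05 the counts were also 1 and 0 (limma), where 14.2% of all probe sets were higher and 14.7% lower. Sema6d, a transmembrane semaphorin that binds Plxna1, was at 10.67 on the unnamed array, 10.30 on clone I and 8.55 and 8.77 on clone II, against 7.32 and 7.19 on the parental arrays. The clone II arrays lay between the other GLI1-transformed arrays and the parental arrays. Mean levels were 9.57 ± 1.07 (SD, n = 4) in GLI1-transformed and 7.26 ± 0.09 (SD, n = 2) in parental cells, a difference of 2.32 (SE 0.62 on the log2 scale, adjusted p = 0.0415). Sema6d passed the filter through its GLI1-transformed arrays alone, since both parental signals were under the 8.33 cutoff, and the size of the rise is uncertain. This call was lost under 8 alternatives. They were the fits without the unnamed array (adjusted p = 0.053), without clone I (0.104), without parental replicate 1 (0.199) or 2 (0.183), without the arrays of highest GAPDH ratio (0.151), with no filter (0.0627), with no intensity trend (0.0583) and with a replicate block (0.0537).

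The other membrane semaphorins tested did not pass. The differences were -1.03 for Sema6a (adjusted p = 0.196), -0.59 for Sema4g, -0.19 for Sema6b, -0.18 for Sema4f, 0.08 for Sema6c, 0.17 for Sema4a and 0.23 for Sema4b. Sema4d, a ligand of Plxnb1, and Sema5a were too dim to test.

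Plexins are the signalling receptors of semaphorins, and all 8 measured were tested: 1 rose, 1 fell and 6 did not pass. That is 25% called, against 15.6% over all genes. Plxnb2, a receptor for class 4 semaphorins, was at 13.97 on the unnamed array, 13.89 on clone I and 13.82 and 14.02 on clone II, against 14.74 and 14.69 on the parental arrays. Arrays of each group lay close together, and Plxnb2 was 1.73-fold lower (log2 -0.79, SE 0.15, adjusted p = 0.0102). The call ended without either parental array (adjusted p = 0.112 for replicate 1, 0.0797 for replicate 2), without the arrays of highest GAPDH ratio (0.19) and with median centring (0.0624). Plxnc1, the receptor of Sema7a, was at 10.83 on the unnamed array, 11.28 on clone I and 10.84 and 10.66 on clone II, against 9.69 and 9.68 on the parental arrays. All GLI1-transformed arrays were above the parental arrays, with a 2.32-fold rise (log2 1.21, SE 0.25, adjusted p = 0.0155). A further Plxnc1 probe set rose by 1.40 (adjusted p = 0.0134). The call of the first ended without either parental array (adjusted p = 0.123 for replicate 1, 0.101 for replicate 2) and without the arrays of highest GAPDH ratio (0.185).

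The plexins that pair with neuropilins, the A group, did not pass: Plxna1 gave -0.01 (adjusted p = 0.995), Plxna2 -1.81 (0.181), Plxna3 -0.80 (0.0991) and Plxna4 0.31 (0.674). A further Plxna2 probe set, too dim to test, had every GLI1-transformed array (4.57 to 7.40) below both parental arrays (10.32 and 9.61). On the remaining Plxna2 probe set, also too dim to test, the groups overlapped. Plxna1 and Plxna4 changed sign under some alternatives. Plxna3 passed without the unnamed array (log2 difference -1.0, adjusted p = 0.0151), a fit in which more of all probe sets were called. Plxnd1, the Sema3e receptor, gave 0.44 (0.351), and Plxnb1 gave -0.47 (0.241). Over all 23 tested genes of the semaphorin system 4 rose and 4 fell, with a median of -0.18. That is 34.8% called, against 15.6% over all genes with 1 probe set each.

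**Figure D2:**
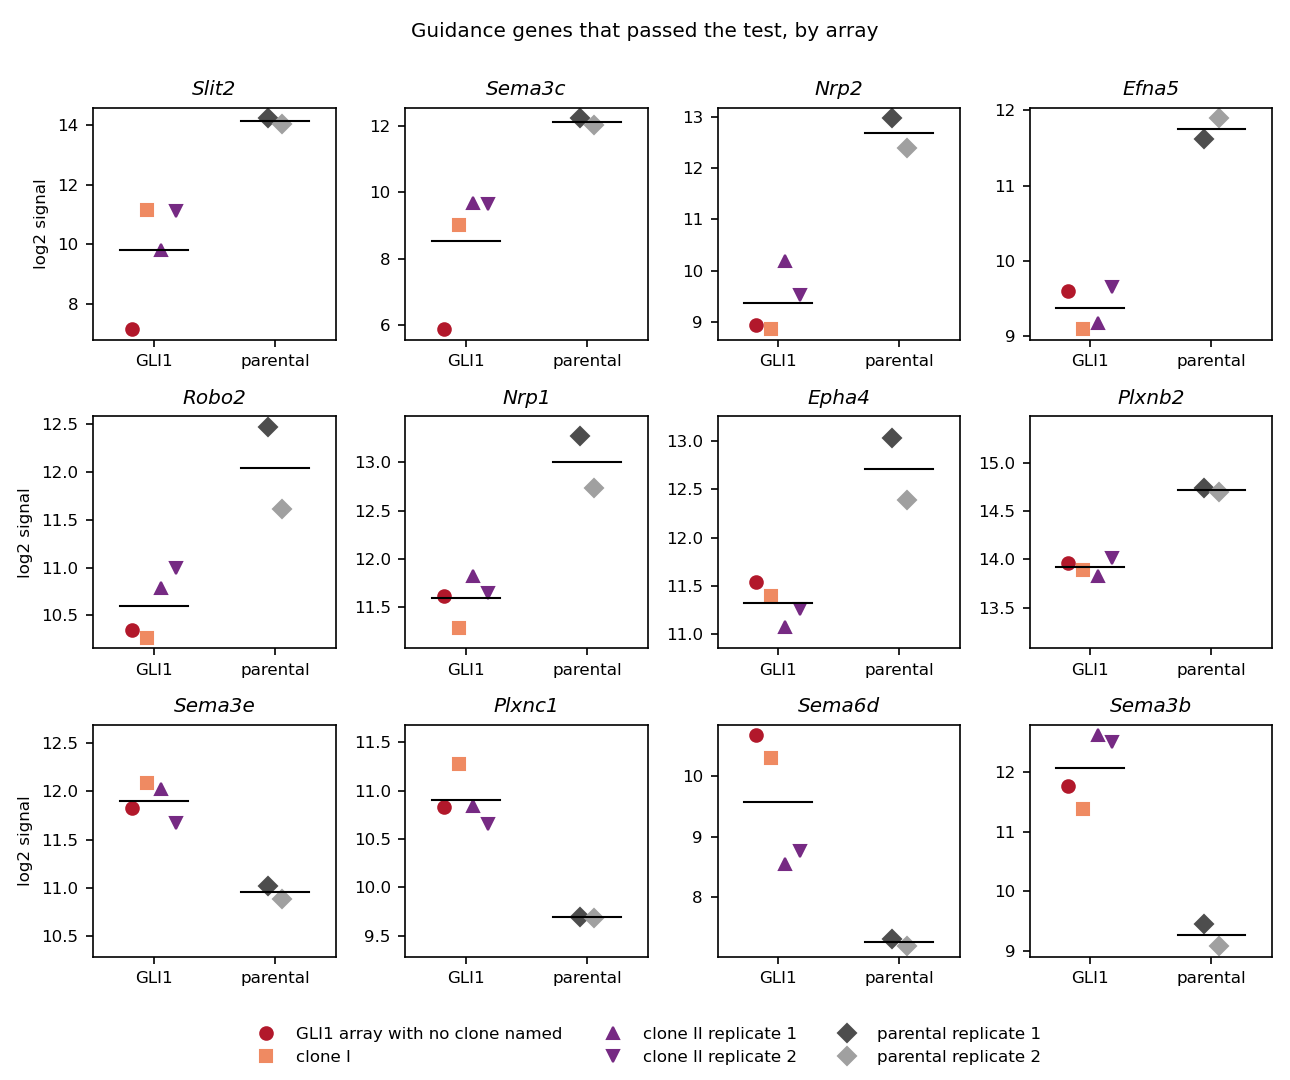
Log2 signal of the 12 guidance genes that passed, by array: GLI1-transformed arrays on the left of each panel and parental arrays on the right, symbols for clones and replicates, black lines for group means, each panel with its own axis. Groups do not overlap in any panel, and the unnamed array (no clone in its label) is lowest for Slit2 (7.17) and Sema3c (5.88).

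In the ephrin and Eph system 10 of 17 genes were tested: 0 rose, 2 fell and the other 8 missed the threshold. That is 20% called, against 15.6% over all genes. At an unadjusted p under 0.05 the counts were 0 and 4 (limma), against 14.2% and 14.7% of all probe sets. Efna5, a lipid-anchored ligand of EphA receptors, was at 9.60 on the unnamed array, 9.10 on clone I and 9.18 and 9.66 on clone II, against 11.62 and 11.90 on the parental arrays. The spread within each group was small beside the gap between them. Means of 9.38 ± 0.29 (SD, n = 4) in GLI1-transformed and 11.76 ± 0.20 (SD, n = 2) in parental cells gave a 5.19-fold fall (SE 0.28 on the log2 scale, adjusted p = 0.00112), the smallest adjusted p among the guidance genes. Efna1, a ligand of Epha2, gave -0.49 (adjusted p = 0.465) and Efna4 gave -0.75 (0.139). The transmembrane ligands Efnb1 and Efnb3 gave 0.30 (0.484) and 0.16 (0.776).

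Epha4, a receptor that binds ephrins of the A and B groups, was at 11.54 on the unnamed array, 11.40 on clone I and 11.08 and 11.26 on clone II, against 13.03 and 12.38 on the parental arrays. The GLI1-transformed arrays kept within 0.5 log2 units of each other, below both parental arrays. Epha4 averaged 11.32 ± 0.20 (SD, n = 4) in GLI1-transformed and 12.71 ± 0.46 (SD, n = 2) in parental cells, a 2.62-fold fall (SE 0.24, adjusted p = 0.00725). Of its further probe sets, 2 were tested, and they fell 3.0-fold (adjusted p = 0.0103) and 2.78-fold (0.0406). The call of the main probe set was lost without parental replicate 1 (adjusted p = 0.111) and without the arrays of highest GAPDH ratio (0.175).

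No other Eph receptor passed. Epha2, a receptor common in epithelia and tumours, gave 0.09 (SE 0.65, adjusted p = 0.945), with 12.42 on the unnamed array, 10.50 on clone I and 10.05 and 9.64 on clone II, against 10.54 and 10.58 on the parental arrays. The GLI1-transformed arrays thus lay on each side of the parental arrays. Epha6 gave 0.59 (0.391), Ephb3 -1.22 (0.181) and Ephb4, a receptor of venous endothelium, -0.54 (0.126). Ephb3 passed without the unnamed array (log2 difference -1.65, adjusted p = 0.0216), a fit in which more of all probe sets were called. Epha3, Epha5, Epha7, Epha8, Epha10, Ephb1 and Ephb6 were too dim to test. Among them Epha7 was at 5.60 on the unnamed array, 7.41 on clone I and 6.42 and 5.65 on clone II, against 9.58 and 10.05 on the parental arrays. Its parental signals were above the cutoff and its GLI1-transformed signals below it, and with no filter the difference was -3.55 (SE 0.70, adjusted p = 0.0159).

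Slit2, the secreted ligand of Robo receptors, was bright in parental cells and lower in every GLI1-transformed array, at 7.17 on the unnamed array, 11.17 on clone I and 9.83 and 11.13 on clone II, against 14.23 and 14.04 on the parental arrays. The GLI1-transformed arrays were spread over 4 log2 units, and the unnamed array was under the 8.33 cutoff. The means were 9.82 ± 1.88 (SD, n = 4) in GLI1-transformed and 14.13 ± 0.13 (SD, n = 2) in parental cells, a 19.9-fold fall (SE 0.96 on the log2 scale, adjusted p = 0.0202). Without the unnamed array the fall was 10.8-fold (adjusted p = 0.00133). A further Slit2 probe set gave a larger fall, 53.5-fold (log2 -5.74, adjusted p = 0.0176). The call ended without either parental array (adjusted p = 0.155 for replicate 1, 0.114 for replicate 2) and without the arrays of highest GAPDH ratio (0.222), where the lone parental array is assumed to vary like the others. Slit3, a close relative, gave 0.54 (adjusted p = 0.205), and Slit1 was too dim to test.

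Robo2, a Slit receptor, was at 10.35 on the unnamed array, 10.27 on clone I and 10.79 and 11 on clone II, against 12.47 and 11.61 on the parental arrays. The parental arrays differed from each other by more than any pair of GLI1-transformed arrays. Robo2 averaged 10.60 ± 0.35 (SD, n = 4) in GLI1-transformed and 12.04 ± 0.61 (SD, n = 2) in parental cells, a 2.72-fold fall (SE 0.32 on the log2 scale, adjusted p = 0.0191). A further Robo2 probe set did not pass (1.42-fold lower, adjusted p = 0.245). The call was also lost without parental replicate 1 (adjusted p = 0.217) and without the arrays of highest GAPDH ratio (0.261). Robo1 and Robo3 were too dim to test. Robo1 was at 7.25 on the unnamed array, 7.79 on clone I and 8.20 and 8.14 on clone II, against 8.89 and 9.04 on the parental arrays, and with no filter gave -1.12 (adjusted p = 0.243).

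In all, 14 of the 50 genes fell under the signal filter, with values from 2.77 to 10.65. In 3 of them, Sema3d, Epha7 and Robo1, every GLI1-transformed array was below both parental arrays, and in the other 11 the groups overlapped. No share over all probe sets under the filter stands beside this count, so it is not a result about these genes as a set. MAS5 detection calls were not used here, so a dim gene is not called absent.

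Because 2 of the 4 GLI1-transformed arrays come from 1 clone, clone II and the other GLI1-transformed arrays were each set against the parental arrays, which they share. The unnamed array is labelled biological replicate 1 and clone I biological replicate 2, while clone II has its own replicates 1 and 2. The clone of the unnamed array is still not stated, so these contrasts compare labelled arrays and not settled clones. Of the 4 epithelial markers tested, only Krt8 passed across this split. It averaged 9.15 on clone II and 12.32 on the other arrays (adjusted p = 0.0157, limma). Epcam (8.99 and 10.99, adjusted p = 0.106) and Ocln (10.11 and 11.63, 0.195) were lower on clone II without passing. Cldn1 went the other way and did not pass (10.40 and 9.99, 0.857). The part of these markers in the guidance gene contrasts was not tested. In clone II, 1 guidance gene rose and 8 fell, where 9.73% of all probe sets were called (3.99% risen, 5.74% fallen). These counts moved under the alternatives. The share of all probe sets called in the same fits is not given, so the changes are not a result about the guidance genes alone. The 1 risen became 3 with a filter at the 60th percentile or a replicate block, and 4 with median centring or quantile normalization. The 8 fallen became 2 without clone II replicate 1 or parental replicate 1, 4 without clone II replicate 2 or with no intensity trend, 5 without parental replicate 2 or with the 60th percentile filter, and 11 without clone I or the unnamed array. With the arrays of highest GAPDH ratio left out, 1 fell. In the other GLI1-transformed arrays 4 rose and 8 fell, where 12.4% of all probe sets were called (5.57% risen, 6.83% fallen). Sema3b, Nrp1, Nrp2, Efna5, Epha4 and Plxnb2 were called in each of these comparisons. Sema3b differed by 3.29 in clone II and by 2.31 in the other arrays, Nrp2 by -2.83 and -3.77, and Efna5 by -2.34 and -2.41.

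Plxna2, Ephb3 and Sema3f fell in clone II and did not pass in the other arrays. Plxna2, a semaphorin receptor of the A group, was at 6.26 and 7.29 on clone II, 9.34 on the unnamed array and 8.81 on clone I, against 10.30 and 9.16 on the parental arrays. Clone II was lowest, with a log2 difference of -2.96 (adjusted p = 0.0175) against -0.66 (0.512) in the other arrays. Both clone II signals were under the 8.33 cutoff, so Plxna2 passed the filter through the other arrays and the size of its fall is uncertain. A further Plxna2 probe set, too dim to test, did not set clone II apart, with 5.03 and 7.02 on clone II, 7.40 on the unnamed array and 4.57 on clone I, against 10.32 and 9.61 on the parental arrays. Ephb3, a receptor of B ephrins, was at 10.37 and 10.48 on clone II, 12.47 on the unnamed array and 11.37 on clone I, against 12.84 and 11.94 on the parental arrays. Its differences were -1.97 (adjusted p = 0.0215) in clone II and -0.47 (0.502) in the other arrays. Sema3f was at 8.77 and 9.31 on clone II, 10.48 on the unnamed array and 9.52 on clone I, against 10.51 and 10.93 on the parental arrays. It gave -1.68 (0.0386) and -0.72 (0.302), and a further Sema3f probe set gave -4.17 (0.0208) in clone II, where both its signals were under the cutoff. Each of these 3 calls in clone II was lost without clone II replicate 1 (adjusted p = 0.0828, 0.0942 and 0.183 for Plxna2, Ephb3 and Sema3f) and without parental replicate 1 (0.172, 0.165 and 0.14). Those of Ephb3 and Sema3f were also lost without clone II replicate 2 (0.068 and 0.0686), and that of Sema3f without parental replicate 2 (0.21). No intensity trend ended those of Ephb3 (0.0567) and Sema3f (0.0589), no filter that of Sema3f (0.0555), and leaving out the arrays of highest GAPDH ratio all 3 (0.458, 0.377 and 0.368).

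Sema6d, Slit2, Sema3c, Robo2, Plxnc1 and Sema3e passed in the other arrays and not in clone II. Sema6d differed by 1.41 in clone II (adjusted p = 0.0692) and by 3.23 in the other arrays (0.00227). Slit2 gave -3.66 (0.0669) and -4.97 (0.0193), Sema3c -2.47 (0.104) and -4.69 (0.0089), and Robo2 -1.15 (0.0579) and -1.73 (0.0107). On the unnamed array Slit2 (7.17) and Sema3c (5.88) were under the signal cutoff, as was the Sema3c mean of the other arrays (7.44). The sizes of these falls of Slit2 and Sema3c in the other arrays are therefore uncertain. Plxnc1 gave 1.06 (0.052) and 1.37 (0.0177), and Sema3e 0.89 (0.0524) and 1.0 (0.0298).

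Set directly against each other with limma, clone II and the other GLI1-transformed arrays differed in 0 of the 36 guidance genes, where 0.129% of all probe sets were called (0.0161% higher and 0.113% lower in clone II). At an unadjusted p under 0.05, 3 were higher and 6 lower in clone II, where 3.64% of all probe sets were higher and 5.01% lower. The smallest adjusted p was that of Sema6d, with a log2 difference of -1.82 (SE 0.41, adjusted p = 0.19). Plxna2 gave -2.30 (0.238), Ephb3 -1.49 (0.292), Sema3b 0.98 (0.282) and Sema3c 2.22 (0.497). With all arrays, a difference between clone II and the other arrays was thus not shown for any guidance gene. Without clone I, Sema3c was higher in clone II by 3.78 (SE 0.35) and Epha2 differed by -2.58 (SE 0.32). That fit has the unnamed array alone on its other side, which is assumed to vary like the clone II and parental arrays. Sema3c was at 5.88 on the unnamed array, under the signal cutoff. It passed the filter through the remaining arrays, and the size of its difference from clone II is uncertain.

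**Figure D3:**
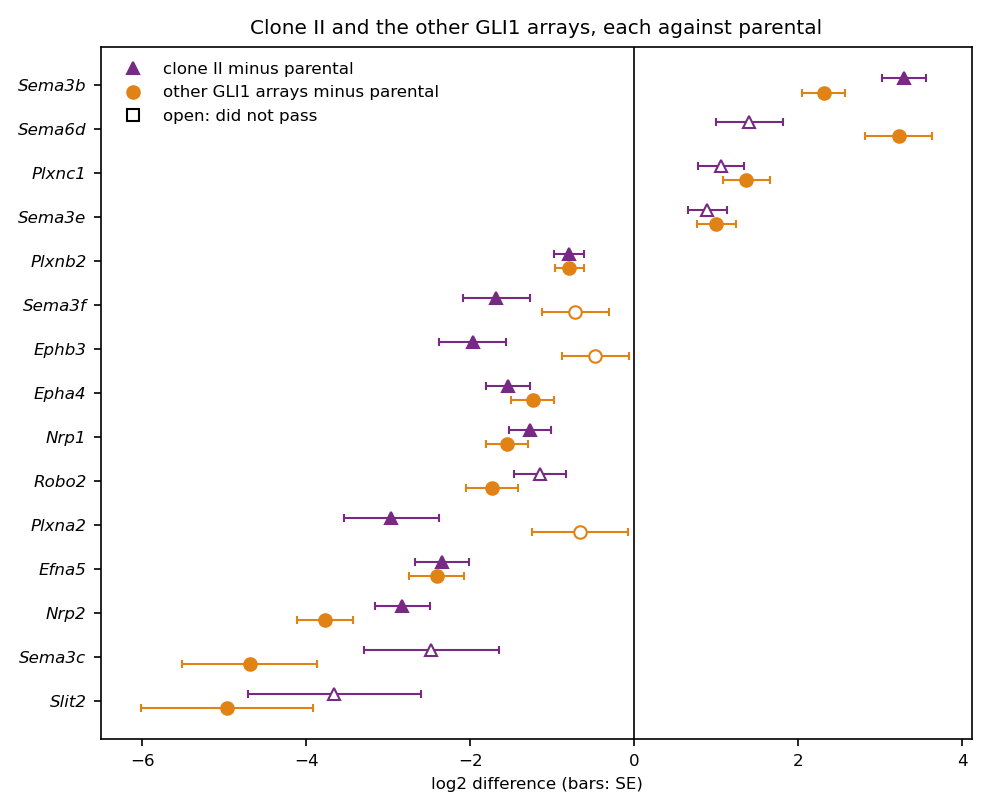
Log2 difference from the parental arrays for clone II (triangles, 2 arrays) and for the other GLI1-transformed arrays (circles, 2 arrays), for the 15 guidance genes called in at least 1 comparison; bars are SE and open symbols did not pass. Both comparisons use the same parental arrays. The symbols of Plxna2, Sema3c, Sema6d and Ephb3 differ in fill and lie far apart. With all arrays, none of these genes passed when clone II and the other arrays were set directly against each other.

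A list of 76 other genes that act with these receptors, from collapsin response mediators and cytoskeletal regulators to adaptors and proteases, had 73 genes measured and 65 tested. Of these 1 rose, 8 fell and 56 did not pass, 13.8% called. This was near the 13.1% of all probe sets and below the 15.6% of all genes with 1 probe set each, as here. The median was -0.14. Chn2, a Rac-inactivating chimaerin that acts downstream of Nrp2 in mouse neurons, fell 6.17-fold (log2 -2.63, SE 0.31, adjusted p = 0.0012). Adam10, a membrane protease that sheds ephrins, fell 2.66-fold (0.0119), and the actin regulator Evl 2.09-fold (0.00893). Crmp1, a mediator of semaphorin signals to microtubules, rose 3.74-fold (0.00847). Fewer effector genes were called without either parental array or without the arrays of highest GAPDH ratio. The same was seen over all probe sets, so this is not a result about the effector list. With median centring 4 rose and 5 fell.

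**Figure D4:**
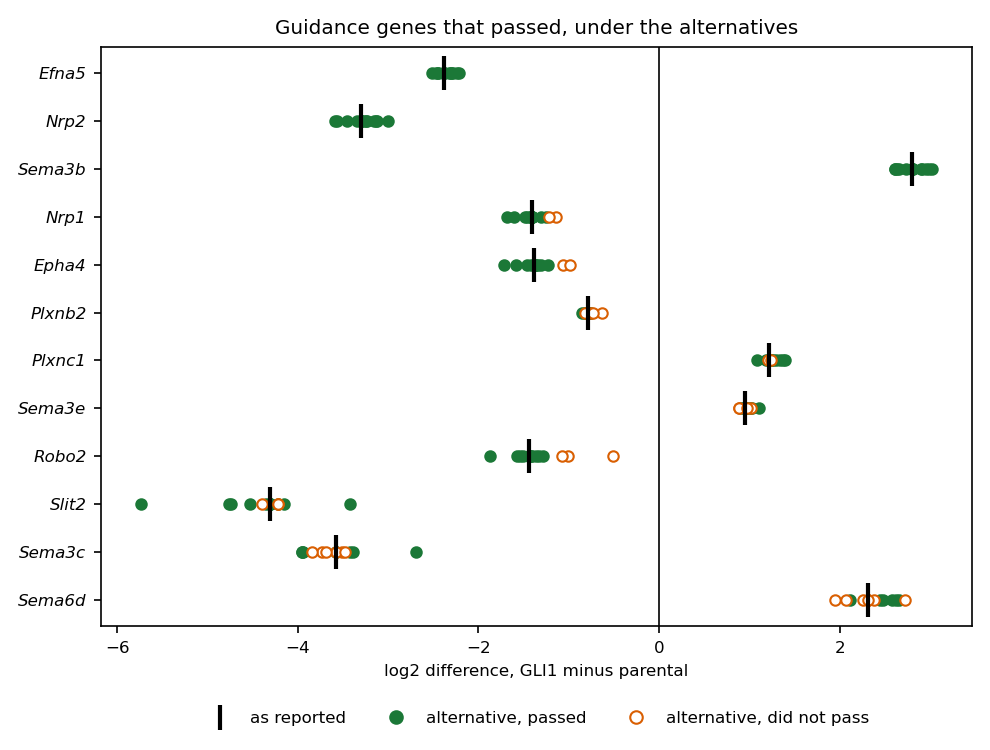
Log2 difference, GLI1-transformed minus parental, of the 12 guidance genes that passed, under each alternative; the black bar is the value as reported, filled circles are alternatives in which the gene passed and open circles those in which it did not. Every value stays on the side of 0 of its reported value, and Efna5, Nrp2 and Sema3b have no open circle.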

How the data were processed

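RNA from 4 GLI1-transformed and 2 parental RK3E cultures was hybridised as biotin-labelled cRNA to 1-colour Affymetrix rat arrays, per the labels' protocols. MAS5, named without a version in the submitters' processing notes, gave the deposited linear intensity of each probe set. MAS5 values of dim probe sets are noisy on the log scale.

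Values were put on the log2 scale after a floor of 1 was applied to the deposited signals. Of 31099 probe sets 57 controls were left out, and those with a mean log2 signal above the 40th percentile (18625) were tested with limma 3.58.1 in R 4.3.3 (lmFit, then eBayes with an intensity trend), with two-sided p-values adjusted by Benjamini-Hochberg over all of them. A 3-level model gave the clone contrasts. Errors of means are SDs between arrays. The labels call the samples biological replicates without saying how cultures were kept apart, so p-values measure the spread between these arrays only. The fit was tested on simulated data.

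Symbols came from a probe annotation table; all 50 members were found in a gene list of the GRCr8 assembly, used with its promoter table for names and start regions. The 8 genes of smallest adjusted p and any called in a clone contrast got values on every array, other tested genes a log2 difference, and of the effector list up to 4 of smallest adjusted p in each direction were named, less 1 not reported here; Epha2 and the dim genes given by array were chosen after their values were seen. The members and lists were chosen with earlier results of these data known. Alternatives covered the filter, scaling, 32 added before log2, no trend, arrays left out, a replicate block, clone II averaged and a second probe set.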

Additional observations from a re-analysis of the deposited data

Results flagged for a closer look

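For 2 of the 36 guidance genes tested, the GLI1-transformed array whose label names no clone stood apart from the other 3 GLI1-transformed arrays by Dixon's test, which chance does in about 1 in 20 groups. Efnb3, an ephrin-B ligand, was at 11.62 there, with the other GLI1-transformed arrays between 10.73 and 10.86 and the parental arrays at 10.95 and 10.71. Plxna3, a semaphorin receptor, was at 11.39 there, with the other GLI1-transformed arrays between 10.51 and 10.65 and the parental arrays at 11.63 and 11.53.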

How the results depend on the processing

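All 12 called guidance genes kept their direction under the 16 alternatives where each was measured, and 3 (Efna5, Nrp2, Sema3b) stayed called throughout. Of the 24 genes that did not pass, 4 passed under some alternative and 7 changed sign under at least 1: Plxna4, Sema4b, Efnb3, Sema6b, Sema4f, Epha2 and Plxna1. With 1 array left out, GLI1-transformed against parental cells gave 1 to 5 risen and 2 to 11 fallen guidance genes, clone II against parental 1 to 2 and 2 to 11, the other arrays against parental 2 to 5 and 2 to 8, and clone II against the other arrays 0 to 1 and 0 to 1. Effector genes gave 0 to 2 risen and 1 to 9 fallen. Without both arrays of highest GAPDH ratio the first comparison gave 1 risen and 2 fallen, clone II 1 fallen, the other arrays 2 risen and 2 fallen, and the effectors 0 and 0. In clone II against parental, the filter at the 60th percentile gave 3 risen and 5 fallen, median centring and quantile normalization 4 risen each, no intensity trend 2 risen and 4 fallen. Effectors gave 0 risen at the 60th percentile (54 tested), 4 risen and 5 fallen with median centring, 5 fallen with no intensity trend, and 2 risen with clone II averaged. Fewer genes were tested under the stricter filter, and the cause of the other changes was not tested. The counts of clone II and of the other arrays against parental cells have no share over all probe sets in the same fits beside them. The replicate numbers of the labels gave correlations of 0.104, 0.321 and 0.0681 between groups and were not taken as pairs. With the replicate number as a block, 3 guidance genes rose and 8 fell against parental cells, 3 rose in clone II, 2 effectors rose, and Sema6d lost its call (adjusted p = 0.0537). With no filter 10 guidance genes fell, Epha7 and Sema3d included. Over all probe sets 1087 rose and 1351 fell, and without the unnamed array 1377 rose and 1653 fell. Leaving out the arrays of highest GAPDH ratio gave 145 and 167, parental replicate 1 gave 228 and 282, parental replicate 2 gave 276 and 421, clone I gave 599 and 900, and no intensity trend gave 705 and 1090.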
